A study of Homo sapiens with 11 samples.

Results

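The miR-29 family was followed in 6 parental human tumour cell lines by small RNA-seq. Members were the mature miRNAs named miR-29a, miR-29b or miR-29c, both arms included, matched by exact name. This gave 7 of the 2588 mature miRNA names in the tables, namely 3 from the 3p arm and 4 from the 5p arm. All 7 members were listed in every library.

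The lines were A549 (lung cancer), ES2 (ovarian cancer), MV3 (melanoma), PANC1 (pancreatic cancer), BE(2)C (neuroblastoma) and HepG2 (liver cancer). All were untreated and unmodified, with 2 biological replicates each and 1 for PANC1, which gives 11 libraries. A NEXTflex kit and an input of 50 ng RNA were used for A549, ES2, MV3 and PANC1, and the provider Novogene prepared BE(2)C and HepG2, with another sequencer and read length. Cells were collected 48 h after seeding, except that the protocol gives 24 h for BE(2)C while the sample characteristics give 48 h. In any comparison between the 4 NEXTflex lines and the 2 Novogene lines, the line and the preparation cannot be told apart.

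A miRNA guides Argonaute proteins to partly complementary sites in mRNAs, and bases 2 to 8 from its 5′ end, the seed, carry most of the pairing. Each hairpin precursor yields a 5p and a 3p strand, of which one usually persists in Argonaute as the guide while the other is degraded. The miR-29 3p strands are known as repressors of collagens and other extracellular matrix proteins, of the DNA methyltransferases DNMT3A and DNMT3B, and of the survival factor MCL1. They are called guides here from this background, not from the read counts.

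The mature sequences were taken from RefSeq (GRCh38.p14) and matched for all 7 members. They are shown because the shared seed makes the 3 guides one target family, while a single base tells miR-29a-3p from miR-29c-3p. Capitals mark the seed, and each sequence runs 5′ to 3′.
hsa-miR-29a-3p: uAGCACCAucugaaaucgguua
hsa-miR-29c-3p: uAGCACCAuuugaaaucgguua
hsa-miR-29b-3p: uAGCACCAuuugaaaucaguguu
hsa-miR-29a-5p: aCUGAUUUcuuuugguguucag
hsa-miR-29c-5p: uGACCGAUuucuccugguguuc
hsa-miR-29b-1-5p: gCUGGUUUcauauggugguuuaga
hsa-miR-29b-2-5p: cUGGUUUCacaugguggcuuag

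The 3 strands of the 3p arm shared the seed AGCACCA, which no other human mature miRNA in the RefSeq table carried. Counted from the 5′ end of the first named sequence, miR-29a-3p and miR-29c-3p differed by the single substitution C10U, outside the seed. From miR-29a-3p to miR-29b-3p the substitutions were C10U, G18A, U21G and A22U. miR-29b-3p ended in AGUGUU, an element known to direct its import into the nucleus, and 2 of 2370 human mature miRNAs ended in these letters. The 5p strands had 4 different seeds. miR-29b-2-5p started 1 base further into its hairpin than miR-29b-1-5p, and over the 22 bases that could be aligned they differed by U11C and U19C, again counted on the first named.

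The 4 hairpin genes form 2 clusters. The chromosome 7 cluster holds MIR29A (ENSG00000284032.1, chr7:130876747-130876810) and MIR29B1 (ENSG00000283797.1, chr7:130877459-130877539), with 648 bases between the hairpins. The chromosome 1 cluster holds MIR29C (ENSG00000284214.1, chr1:207801852-207801939) and MIR29B2 (ENSG00000284203.1, chr1:207802443-207802523), with 503 bases between them. All coordinates are GRCh38 (hg38), and all 4 genes lie on the minus strand. The chromosome 1 hairpins lie whole within an exon of the lncRNA MIR29B2CHG. MIR29B1 lies whole within an exon of the lncRNA LINC-PINT, whereas MIR29A overlaps that annotation's exons by 2 of its 64 bases and is otherwise intronic. An opposite-strand lncRNA, LINC00513, spans the chromosome 7 pair with introns only. miR-29b-3p is made from both clusters, so its reads carry no information on the locus. In the tables its reads were split almost evenly between the rows of its 2 loci, with 47.6% to 54.2% on chromosome 7. The other 6 members are locus-specific, 3 for each cluster.

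The libraries held 1173902 to 12137452 miRNA reads, and levels are counts scaled to 1000000 such reads (CPM). A count of 0 allows up to 3 reads, or 0.247 to 2.56 CPM. Intervals on shares and ratios are 95% Wilson intervals, and these and the limits for 0 cover counting error only. Replicates were not deposits of one library, since the chi-square of their counts per degree of freedom was 8.53 (ES2) to 849 (BE(2)C), where sampling noise alone gives about 1. The 2 BE(2)C libraries stood furthest apart by this measure. A single miRNA held most reads in 2 lines, with miR-148a-3p at 739220 ± 19263 CPM (SD, n = 2) in HepG2 and miR-21-5p at 646036 ± 6097 CPM (SD, n = 2) in A549. Levels on the CPM scale are relative to such miRNAs. A second scale, CPM divided by a TMM (trimmed mean of M-values) factor computed over all libraries, is therefore given for part of the results. Where it is not given, a direction may differ on it. These factors were 0.166 and 0.217 in HepG2 and 1.02 to 1.87 in the other libraries.

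The chromosome 7 guide hsa-miR-29a-3p was the most abundant member in every library. It held 94.7% to 96.4% of all family reads in the NEXTflex libraries, 83.9% and 80.7% in HepG2 and 55.9% and 80.8% in BE(2)C. In ES2 its level was 25637 and 24430 CPM, in MV3 14931 and 15028 CPM, in PANC1 7381 CPM, in A549 4321 and 3764 CPM, in BE(2)C 252 and 508 CPM, and in HepG2 105 and 112 CPM. The lines did not overlap, and the mean in ES2 was 231 times that in HepG2. miR-29a-3p ranked 8 and 9 among 2588 names in the ES2 libraries, 22 and 26 in A549, 70 and 72 in HepG2, and 149 and 121 in BE(2)C. With TMM factors ES2 remained highest, but BE(2)C (244 ± 99.3 CPM, SD, n = 2) fell below HepG2 (574 ± 81.3 CPM, SD, n = 2), and ES2 was 77.5 times the lowest line.

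All members together held 2.69% and 2.58% of miRNA reads in ES2, 1.56% and 1.57% in MV3, 0.765% in PANC1, 0.450% and 0.394% in A549, 0.0452% and 0.0629% in BE(2)C, and 0.0125% and 0.0139% in HepG2. Of the reads with the shared seed, miR-29a-3p held 98.3% to 98.9% in the 7 NEXTflex libraries and 89.4% to 95.02% in the 4 Novogene libraries. These ranges of the 3p composition did not overlap.

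**Figure D1:**
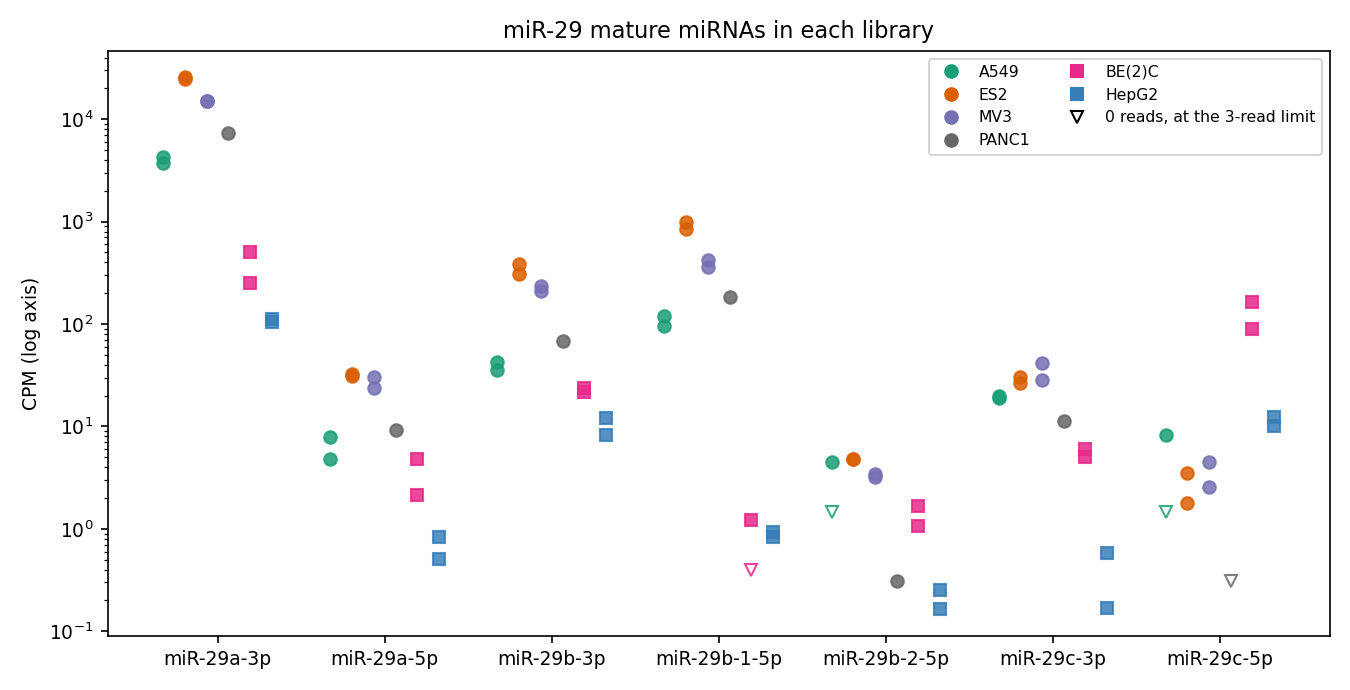
Levels of the 7 members in CPM (log axis) in each of the 11 libraries, coloured by line, with circles for NEXTflex, squares for Novogene and open triangles for 0 reads drawn at the 3-read limit. miR-29a-3p is highest in every library, and miR-29c-5p is the member whose 4 Novogene libraries lie above all NEXTflex libraries.

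hsa-miR-29b-3p, the guide made from both clusters, was present at 382 and 309 CPM in ES2, 233 and 208 CPM in MV3, 68.9 CPM in PANC1, 42.3 and 35.4 CPM in A549, 23.8 and 21.6 CPM in BE(2)C, and 8.25 and 12.1 CPM in HepG2. It followed the order of miR-29a-3p over a narrower range, the ES2 mean being 33.9 times that of HepG2. With TMM factors HepG2 (52.7 ± 4.36 CPM, SD, n = 2) rose above A549 (36.8 ± 6.64 CPM, SD, n = 2), and BE(2)C (14.9 ± 2.17 CPM, SD, n = 2) was lowest.

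The chromosome 1 guide hsa-miR-29c-3p was low throughout, at 28.1 and 42.0 CPM in MV3, 26.5 and 30.1 CPM in ES2, 19.1 and 19.9 CPM in A549, 11.2 CPM in PANC1, 5.98 and 5.05 CPM in BE(2)C, and 0.168 and 0.577 CPM in HepG2. The HepG2 values rest on 2 and 7 reads. MV3 and ES2 overlapped, and with TMM factors the highest mean was that of ES2 in place of MV3.

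The 5p strands differed among themselves in level and in their order over the lines. hsa-miR-29a-5p, the partner of the most abundant guide, was at 32.5 and 30.9 CPM in ES2, 23.9 and 30.3 CPM in MV3, 9.23 CPM in PANC1, 7.87 and 4.85 CPM in A549, 4.79 and 2.14 CPM in BE(2)C, and 0.505 and 0.824 CPM in HepG2. A549 and BE(2)C came within less than 1 read of each other, at 4.85 and 4.79 CPM. With TMM factors PANC1 (5.23 CPM) fell below the mean of A549 (6.05 ± 2.34 CPM, SD, n = 2). BE(2)C (2.31 ± 1.40 CPM, SD, n = 2) then fell below HepG2 (3.42 ± 0.54 CPM, SD, n = 2).

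hsa-miR-29b-1-5p, which derives from the chromosome 7 cluster, was at 854 and 1001 CPM in ES2, 359 and 422 CPM in MV3, 183 CPM in PANC1 and 95.1 and 119 CPM in A549. In the Novogene libraries it was near the detection limit, with 0 and 8 reads (0 and 1.22 CPM) in BE(2)C and 11 and 10 reads (0.926 and 0.824 CPM) in HepG2. In NEXTflex libraries it was thus the second most abundant member, above miR-29b-3p.

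hsa-miR-29b-2-5p, its counterpart from chromosome 1, never exceeded 4.81 CPM. It had 12 and 0 reads in A549, 8 and 11 in ES2, 4 and 5 in MV3, 3 in PANC1, 8 and 11 in BE(2)C, and 3 and 2 in HepG2. It did not reach the filter of a mean of 10 CPM in at least 1 line and was not tested.

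hsa-miR-29c-5p showed the opposite pattern to the other tested members. It was at 164 and 89.3 CPM in BE(2)C (1233 and 584 reads) and at 10.1 and 12.3 CPM in HepG2 (120 and 149 reads). In the NEXTflex libraries it was at 8.24 and 0 CPM in A549, 1.80 and 3.49 CPM in ES2, 2.56 and 4.52 CPM in MV3, and 0 CPM in PANC1. The A549 libraries had 22 reads and 0 reads, the latter allowing up to 1.46 CPM, and the 0 reads of PANC1 allowed up to 0.308 CPM.

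Whether member levels differed between lines was tested with limma on log2(CPM + 1) across all 546 miRNAs that passed the filter, with Benjamini-Hochberg adjustment. All 6 tested members differed across the 6 lines, where 99.3% of all tested miRNAs did, so the count itself does not set the family apart. Adjusted p-values of the limma F test were 5.44e-07 for miR-29a-3p, 5.46e-07 for miR-29b-1-5p, 2.48e-06 for miR-29b-3p, 1.93e-05 for miR-29c-3p, 9.73e-05 for miR-29a-5p and 0.00287 for miR-29c-5p.

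Among the 4 NEXTflex lines, which had one preparation, 4 of the 5 tested members differed, against 85.4% of all tested miRNAs. These were miR-29a-3p (limma adjusted p = 5.58e-05), miR-29b-3p (0.000249), miR-29b-1-5p (0.000256) and miR-29a-5p (0.00999). miR-29a-5p passed the filter through ES2 and MV3 only, its higher lines. Without the filter its limma adjusted p was 0.0136. The chromosome 1 guide miR-29c-3p missed the threshold (limma adjusted p = 0.0536) but passed it with a pseudocount of 5 (limma, 0.04), quantile normalization (limma, 0.00738) and edgeR (adjusted p = 0.0477), and miR-29c-5p did not pass the filter in these lines.

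A549 had less of the chromosome 7 strands and of miR-29b-3p than ES2. The log2 difference on the log2(CPM + 1) scale, A549 minus ES2, was -2.63 ± 0.29 (SE) for miR-29a-3p (limma adjusted p = 0.000168), -3.12 ± 0.25 for miR-29b-3p (2.99e-05), -3.11 ± 0.37 for miR-29b-1-5p (0.000253) and -2.18 ± 0.40 for miR-29a-5p (0.00256). Thus 4 of 6 tested members were higher in ES2, where 26.9% of all tested miRNAs were. One of them, miR-29a-5p, passed the filter through ES2 and MV3 only, so the filter partly set its direction. The median difference was -2.41 over the 6 members and -0.17 over all tested. For the chromosome 1 strands the difference was -0.51 ± 0.33 for miR-29c-3p (limma adjusted p = 0.232) and -0.22 ± 0.94 for miR-29c-5p (0.889), the latter changing sign to 0.04 with TMM factors (limma adjusted p = 1).

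A549 also had less of these 4 members than MV3. The difference, A549 minus MV3, was -1.89 ± 0.29 (SE) for miR-29a-3p (limma adjusted p = 0.0011), -2.48 ± 0.25 for miR-29b-3p (0.000118), -1.86 ± 0.37 for miR-29b-1-5p (0.00397) and -1.95 ± 0.40 for miR-29a-5p (0.00426), and 37.4% of all tested miRNAs were higher in MV3. It was -0.79 ± 0.33 for miR-29c-3p (limma adjusted p = 0.0746) and -0.54 ± 0.94 for miR-29c-5p (0.671). The median over all tested miRNAs was -0.47, and 0 with TMM factors, under which these 4 members kept their direction and their calls (limma adjusted p from 0.000796 to 0.0453) and miR-29c-5p changed sign to 0.07 (limma adjusted p = 1). Fewer members were called with edgeR, 2 of them, and with a pseudocount of 5 there were 5. Whether the clusters differed from each other in these contrasts was not tested. Both comparisons share the A549 libraries, and in both miR-29a-5p passed the filter through the higher line and not through A549. The values for miR-29c-5p rest on the A549 library with 22 reads. Without it the difference was -1.83 against ES2 (limma adjusted p = 0.0339) and -2.15 against MV3 (0.0198), and without the A549 library with 0 reads it was 1.38 (0.0864) and 1.06 (0.16). Without MV3 replicate 1 the difference of miR-29c-3p was -1.07 (limma adjusted p = 0.0474).

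Between ES2 and MV3 fewer members passed the test. Of 6 tested members 1, miR-29b-1-5p, was higher in ES2, by 1.25 ± 0.37 (SE, log2, limma adjusted p = 0.0393), where 8.97% of all tested miRNAs were. That call was lost without either library of A549, ES2, MV3 or HepG2 (limma adjusted p from 0.0588 to 0.159), while its difference stayed between 1.13 and 1.36. For miR-29a-3p the difference was 0.74 ± 0.29 (limma adjusted p = 0.0907) and for miR-29b-3p 0.64 ± 0.25 (0.0889). The median over all tested miRNAs was -0.36 in this comparison. With TMM factors, which brought it to 0, both guides passed, at 1.23 (limma adjusted p = 0.0127) and 1.12 (0.0113), and miR-29b-1-5p was at 1.73 (0.00554). The difference of miR-29c-3p changed sign from -0.28 to 0.19 and that of miR-29c-5p from -0.32 to 0.04, with no call on either scale. Without BE(2)C replicate 1 or replicate 2, which are in neither group but enter the shared spread, miR-29a-3p passed as well, at limma adjusted p = 0.00137 and 0.00126.

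BE(2)C and HepG2, the 2 Novogene lines, differed in 5 of 6 tested members on the CPM scale, all higher in BE(2)C, where 74.7% of all tested miRNAs were higher too. BE(2)C minus HepG2 was 3.33 ± 0.94 (SE, log2) for miR-29c-5p (limma adjusted p = 0.011), 2.26 ± 0.33 for miR-29c-3p (0.00031), 1.71 ± 0.29 for miR-29a-3p (0.000781), 1.36 ± 0.40 for miR-29a-5p (0.0132) and 1.10 ± 0.25 for miR-29b-3p (0.00368). It was -0.33 ± 0.37 for miR-29b-1-5p (limma adjusted p = 0.44). The median over all tested miRNAs was 2.79, and on this scale all tested members except miR-29c-5p lay below that median. For miR-29c-3p the HepG2 values rest on 2 and 7 reads (0.168 and 0.577 CPM), so the + 1 made its difference smaller. With TMM factors, which brought that median to 0.49, miR-29a-3p reversed to -1.28 (limma adjusted p = 0.00358), miR-29b-3p to -1.76 (0.000281) and miR-29a-5p to -0.48 (0.347), and miR-29b-1-5p was -2.08 (0.000593). The chromosome 1 strands kept their sign but not their call, at 0.76 for miR-29c-3p (limma adjusted p = 0.121) and 0.43 for miR-29c-5p (0.719), and under quantile normalization miR-29c-5p was -1.02 (0.399). With TMM factors miR-29c-3p thus lay above the median of 0.49 and miR-29c-5p below it.

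On the CPM scale the calls of miR-29a-5p and miR-29c-5p between BE(2)C and HepG2 also rested on single libraries. Without BE(2)C replicate 1 the limma adjusted p-values were 0.0652 and 0.0848, and without HepG2 replicate 1 they were 0.0781 and 0.0525. Without BE(2)C replicate 2, the library with 8 reads of miR-29b-1-5p, the difference of that member was -0.91 (limma adjusted p = 0.00808), and without replicate 1 its difference was 0.25 (0.3).

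**Figure D2:**
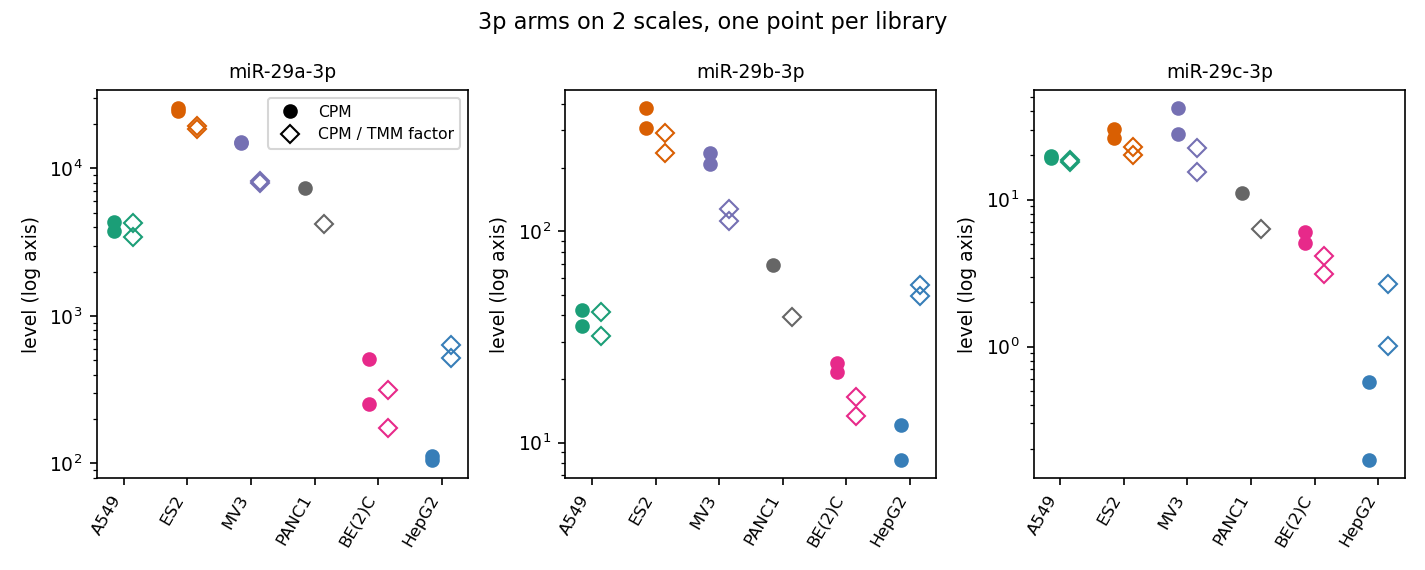
Levels of the 3 guides on 2 scales (log axes), with filled circles for CPM and open diamonds for CPM divided by the TMM factor, one point per library. HepG2 lies below BE(2)C on the CPM scale for all 3 guides and above it with TMM factors for miR-29a-3p and miR-29b-3p.

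Between the 2 preparations, 5 of the 6 tested members (miR-29a-3p, miR-29a-5p, miR-29b-3p, miR-29b-1-5p and miR-29c-3p) were lower in all 4 Novogene libraries than in all 7 NEXTflex libraries, which held for 16.1% of all tested miRNAs. miR-29c-5p was higher in all Novogene libraries, which held for 6.04%. On the CPM scale its contrasts of A549, ES2 and MV3 with HepG2 were not called (limma adjusted p = 0.0945, 0.146 and 0.213). Those with BE(2)C were called (limma adjusted p = 0.00108, 0.0013 and 0.0019). With TMM factors those with HepG2 were called too (limma adjusted p = 0.00324, 0.00346 and 0.00325). With TMM factors miR-29b-3p overlapped between the preparations, while the other 4 remained below and miR-29c-5p above, against 13.9% and 15.9% of all tested miRNAs. These counts describe non-overlap without a test. miR-29c-5p passed the 10 CPM filter through the Novogene lines only, and miR-29a-5p, miR-29b-1-5p and miR-29c-3p through NEXTflex lines only. For these members the direction was thus partly set by the filter. miR-29a-3p and miR-29b-3p reached it in lines of both preparations.

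The balance of the 2 clusters was first read from the guides that differ by a single base. The log2 ratio of miR-29a-3p over miR-29c-3p, on CPM + 1, was 9.74 ± 0.18 (SD, n = 2) in ES2, 9.24 in PANC1, 8.73 ± 0.39 in MV3, 7.62 ± 0.18 in A549, 6.33 ± 0.24 in HepG2 and 5.79 ± 0.86 in BE(2)C. The chromosome 7 guide therefore exceeded the chromosome 1 guide in all 11 libraries. In reads the ratio was 660 (95% interval 547 to 796) in PANC1, 42.2 (31.4 to 56.7) and 101 (71.6 to 142) in BE(2)C, and 624 (171 to 2276) and 194 (94.0 to 402) in HepG2, the wide intervals of HepG2 reflecting its 2 and 7 reads of miR-29c-3p. In A549 the read ratio was 226 (172 to 298) and 189 (139 to 257). HepG2 was thus not below A549 in reads. Its lower log2 ratio reflects the 1 added to miR-29c-3p levels of 0.168 and 0.577 CPM. How reads with a mismatch at the distinguishing base were assigned is not given in the sources used here, and the part of such reads in the miR-29c-3p counts was not tested.

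The 5p strands of the 2 miR-29b loci gave a different balance in the Novogene lines. The log2 ratio of miR-29b-1-5p over miR-29b-2-5p was 7.32 ± 0.16 (SD, n = 2) in ES2, 7.14 in PANC1, 6.50 ± 0.21 in MV3 and 5.52 ± 1.96 in A549, but 0.63 ± 0.02 in HepG2 and -0.66 ± 0.55 in BE(2)C. In A549 replicate 2, 245 reads of the chromosome 7 strand stood against 0 reads, a ratio of at least 81.7 taking 3 reads as the limit in that library. In HepG2 the reads were 11 against 3 and 10 against 2, ratios of 3.67 (1.10 to 12.2) and 5.0 (1.23 to 20.3). The chromosome 7 strand was thus in excess there. Both strands lay at 0.926 CPM or less in HepG2, so the + 1 drew its log2 ratio towards 0. In BE(2)C the reads were 0 against 8 and 8 against 11. The former allows a ratio of up to 0.375 taking 3 reads as the limit, and the latter ratio of 0.727 had an interval of 0.301 to 1.76. The chromosome 7 strand was thus not detectably in excess in BE(2)C at this depth.

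The 5p strands of miR-29a and miR-29c gave the chromosome 1 strand in excess in all 4 Novogene libraries. The log2 ratio of miR-29a-5p over miR-29c-5p was 3.36 in PANC1, 3.20 ± 0.53 (SD, n = 2) in ES2, 2.66 ± 0.21 in MV3 and 1.24 ± 1.84 in A549, against -2.87 ± 0.01 in HepG2 and -4.84 ± 0.01 in BE(2)C. The 2 A549 libraries lay on either side of 0. In BE(2)C, 36 reads of miR-29a-5p stood against 1233 of miR-29c-5p in replicate 1, and 14 against 584 in replicate 2.

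Summed over the locus-specific members, chromosome 7 held 99.3% to 99.9% of reads in the NEXTflex libraries, 91.0% and 89.7% in HepG2, and 60.1% (95% interval 58.4 to 61.8) and 84.2% (83.0 to 85.3) in BE(2)C. The BE(2)C replicates differed by far more than counting error. Within the chromosome 1 reads, miR-29c-5p held 93.0% to 96.0% in the Novogene libraries, whereas miR-29c-3p held 60% to 100% in the NEXTflex libraries. As levels, the chromosome 1 strands summed to 134 ± 53.0 CPM (SD, n = 2) in BE(2)C, 11.8 ± 1.77 in HepG2, 11.5 in PANC1, 25.9 ± 8.44 in A549, 35.7 ± 3.73 in ES2 and 41.9 ± 11.05 in MV3. Those of chromosome 7 summed to 384 ± 180 CPM in BE(2)C and 110 ± 5.23 in HepG2, against 4156 ± 379 in A549, 7573 in PANC1, 15397 ± 118 in MV3 and 25993 ± 751 in ES2. On the CPM scale the chromosome 1 level was thus above that of the NEXTflex lines in BE(2)C but not in HepG2, and the chromosome 7 level was lower in both. With TMM factors miR-29c-5p alone reached 58.7 ± 2.98 CPM (SD, n = 2) in HepG2. miR-29c-3p itself was lower in both than in any NEXTflex library, on either scale.

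**Figure D3:**
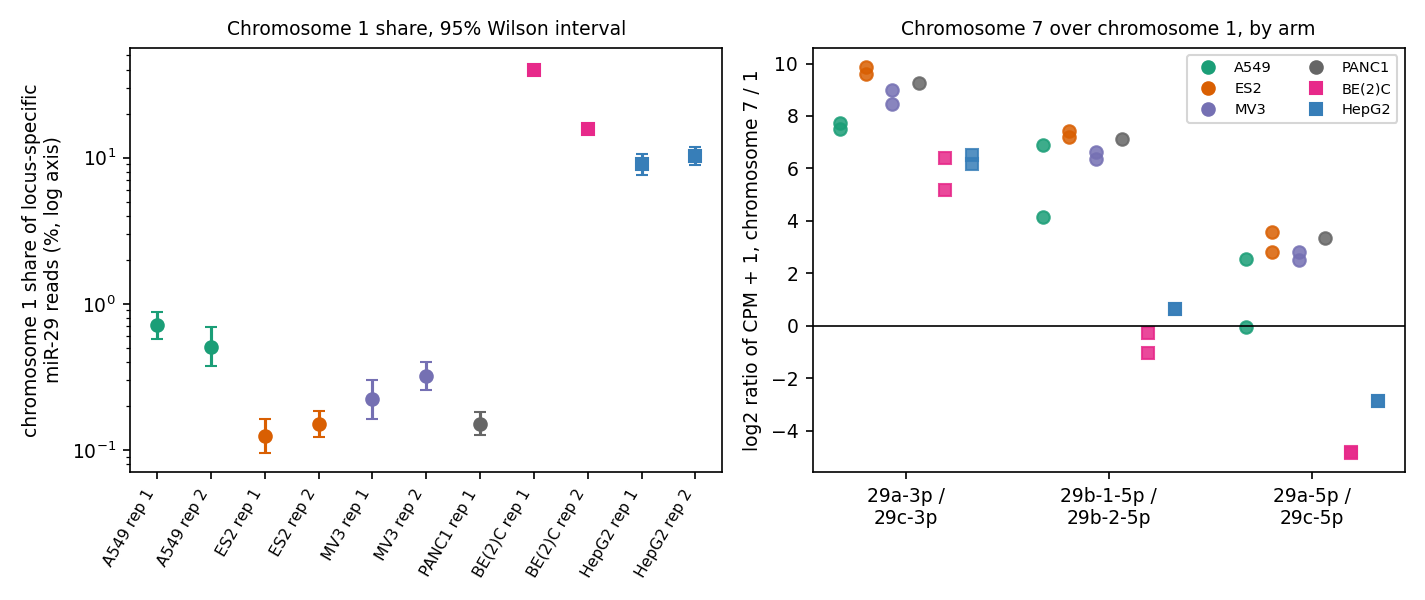
Left, the chromosome 1 share of locus-specific miR-29 reads (percent, log axis) per library with 95% Wilson intervals. Right, log2 ratios of chromosome 7 over chromosome 1 strands on CPM + 1 for 3 strand pairs, one point per library, circles for NEXTflex and squares for Novogene. The chromosome 1 share is below 1% in the 7 NEXTflex libraries, and the guide pair stays above 0 in every library while the 5p pairs do not.

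The arm ratio was the difference log2(5p CPM + 1) minus log2(3p CPM + 1) within a library, with both 5p strands summed for miR-29b. The 3p strand of miR-29a led everywhere. Its ratio was -9.13 ± 0.28 (SD, n = 2) in A549, -9.58 ± 0.001 in ES2, -9.07 ± 0.23 in MV3 and -9.49 in PANC1, and -6.40 ± 1.33 in BE(2)C and -6.05 ± 0.13 in HepG2. The 5p strand made up 0.125% to 0.201% of miR-29a reads in NEXTflex libraries and 0.420% to 1.86% in Novogene libraries.

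For miR-29b the leading arm changed. The 5p strands led in all 7 NEXTflex libraries, with 60.9% to 77.0% of miR-29b reads and ratios of 1.47 ± 0.36 (SD, n = 2) in A549, 1.43 ± 0.38 in ES2, 0.83 ± 0.28 in MV3 and 1.40 in PANC1. The 3p strand led in all 4 Novogene libraries, where the 5p share was 4.28% and 11.9% in BE(2)C and 12.5% and 7.55% in HepG2, with ratios of -3.06 ± 0.75 and -2.40 ± 0.45.

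For miR-29c the change ran the other way. The 5p share was 30.1% and 0% in A549, 6.38% and 10.4% in ES2, 8.33% and 9.72% in MV3 and 0% in PANC1. It was 96.5% and 94.7% in BE(2)C and 98.4% and 95.5% in HepG2. The 0 of 41 reads in A549 replicate 2 allow a share of up to 7.32%, and the 0 of 109 reads in PANC1 up to 2.75%. Ratios were -2.75 ± 2.31 (SD, n = 2) in A549, -3.04 ± 0.35 in ES2, -2.997 ± 0.05 in MV3 and -3.61 in PANC1, against 4.23 ± 0.47 in BE(2)C and 3.16 ± 0.12 in HepG2.

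All 3 arm ratios differed across the 6 lines, at limma adjusted p = 0.00012 for miR-29b, 0.000242 for miR-29c and 0.000968 for miR-29a, where 86.0% of the 300 tested hairpins did. Within the 4 NEXTflex lines 0 of 3 passed, at limma adjusted p = 0.226 for miR-29a, 0.371 for miR-29b and 0.95 for miR-29c, where 37.3% of 271 tested hairpins did. Between BE(2)C and HepG2 none of the 3 passed either, the differences being -0.35 ± 0.54 (SE) for miR-29a (limma adjusted p = 0.62), -0.66 ± 0.49 for miR-29b (0.294) and 1.07 ± 0.93 for miR-29c (0.371), where 52.3% of hairpins did. At an unadjusted limma p below 0.05 the counts were 0 of 3 as well, in both comparisons. A difference within a preparation was thus not detected for any of the 3, with standard errors of 0.49 to 0.93 on the log2 scale between BE(2)C and HepG2. The + 1 weighed on HepG2, where miR-29c-3p had 2 and 7 reads and miR-29a-5p 6 and 10, and it did so in the test across the 6 lines too. In reads the 5p share of miR-29c was 96.5% and 94.7% in BE(2)C and 98.4% and 95.5% in HepG2. For miR-29a the share was 1.86% and 0.420% against 0.479% and 0.729%. The signs of these 2 differences were thus not borne out by the reads.

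Over all tested hairpins the 5p-to-3p ratio was higher in all Novogene than in all NEXTflex libraries for 10.3%, among them miR-29a and miR-29c, and lower for 15.3%, among them miR-29b. A change of the leading arm between all libraries of the 2 preparations was infrequent among the 300 hairpins. The 5p arm led in all Novogene and the 3p arm in all NEXTflex libraries for 4 hairpins (1.33%), which were miR-29c, miR-32, miR-365a and miR-455. The reverse held for 5 hairpins (1.67%), which were miR-29b, miR-195, miR-361, miR-576 and miR-1306. miR-29b and miR-29c were thus 2 of 9 such hairpins and changed in opposite directions. The hairpins beside them were named after their values were seen.

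**Figure D4:**
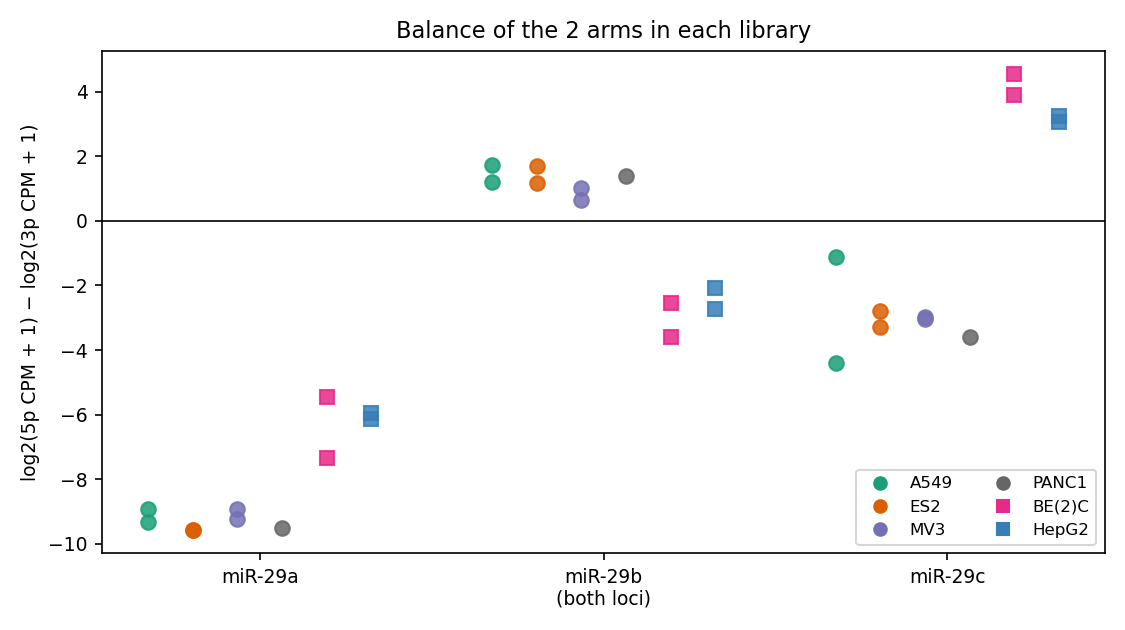
Arm ratio, log2(5p CPM + 1) minus log2(3p CPM + 1), of the 3 miR-29 hairpins in each library, circles for NEXTflex, squares for Novogene, with a line at 0 where both arms are equal. miR-29a stays below 0 throughout, miR-29b is above 0 in the 7 NEXTflex libraries and below in the 4 Novogene libraries, and miR-29c shows the reverse.

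Across the 6 line means on the log2(CPM + 1) scale, the tested members other than miR-29c-5p correlated with each other at Pearson r from 0.87 to 0.99, and miR-29c-5p with them at r from -0.79 to -0.46. These are descriptions over 6 lines that share the split of preparations. Among 540 other miRNAs, those most like miR-29a-3p were miR-100-5p (r = 0.998), miR-1275 (0.982) and let-7d-5p (0.980). For miR-29b-3p they were miR-100-3p (0.974), the haematopoietic miRNA miR-155-5p (0.972) and let-7a-2-3p (0.972), and for miR-29c-3p miR-454-3p (0.993), let-7i-5p (0.988) and miR-15a-5p (0.987). An r above 0.95 was reached by 19 of the 540 for miR-29a-3p, 6 for miR-29b-3p and 12 for miR-29c-3p. miR-100-5p was at a mean of 111145 CPM in ES2 and 52.7 CPM in HepG2.

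Other miRNAs known to act on the 2 processes miR-29 is known for were set beside it. Of 10 miRNAs with known roles in matrix production and fibrosis, 10 differed across the 6 lines and 9 within the NEXTflex lines. Of 8 with known roles towards DNA methyltransferases and chromatin enzymes, 7 were tested, of which 7 and 6 differed, so that both lists stood near the 99.3% and 85.4% of all tested miRNAs. None of either list had its highest mean in ES2, the line with the most miR-29a-3p. The share of all tested miRNAs with their highest mean in ES2 is not given here, so this does not set the lists apart. Among the most abundant, miR-21-5p, known to be raised in fibrosis, was highest in A549 (646036 CPM) and lowest in BE(2)C (12604 CPM). miR-30c-5p, a repressor of the matrix factor CTGF, was highest in PANC1 (8169 CPM) and lowest in HepG2 (184 CPM), and miR-192-5p was highest in HepG2 (15859 CPM) and lowest in PANC1 (54.5 CPM). miR-26a-5p, on both lists and known to repress EZH2, reached 17021 ± 8043 CPM (SD, n = 2) in BE(2)C, its highest line, and 2869 CPM in HepG2, its lowest. Its relative miR-26b-5p was also lowest in HepG2 (498 CPM) and was highest in PANC1 (5795 CPM). miR-148a-3p, a repressor of DNMT1, was at 10.7 CPM in ES2 and 739220 CPM in HepG2. miR-143-3p, known to repress DNMT3A, was highest in BE(2)C (21401 CPM) and lowest in ES2 (14.6 CPM).

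From A549 to ES2, 4 of 10 matrix miRNAs were higher in A549 and 2 lower, with a median log2 difference of 1.21, and 1 of 7 chromatin miRNAs was higher and 3 lower, with a median of -0.99. Over all tested miRNAs 23.6% were higher and 26.9% lower in A549, with a median of -0.17, and the median over the 6 miR-29 members was -2.41. For BE(2)C minus HepG2 the matrix list had 6 higher and 4 lower (median 1.95) and the chromatin list 6 higher and 1 lower (median 2.48), beside 1.54 for the miR-29 members. Over all tested miRNAs 74.7% were higher and 8.24% lower in BE(2)C, with a median of 2.79.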

How the data were processed

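Small RNA-seq of 11 libraries was used. Per the submitters' processing notes, the tools were cutadapt 1.14, Bowtie2 2.3.2, SAMtools 1.5, featureCounts 1.5.3 and edgeR 3.30.3, with build hg38. How multi-mapped reads were counted is not given in the sources used here. The authors deposited CPM for PANC1. For the other 5 lines the deposited unit was a signal, CPM over a factor set within each table of 2 libraries, although the design had assumed CPM. All nonzero values were whole multiples of one read (100%, tolerance 0.01), so whole reads were recovered, rows of one name were summed and each library was rescaled to 1000000.

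limma 3.58.1 (R 4.3.3) was fitted on log2(CPM + 1) with line as factor, all libraries sharing one spread, after a filter that kept miRNAs averaging 10 CPM or more in some line. Calls were at a Benjamini-Hochberg adjusted p below 0.05, two-sided for contrasts. PANC1 has 1 library and entered no pairwise contrast. Arm ratios were fitted in the same way over all hairpins. Scripts were tested on simulated data. Alternatives were TMM factors, DESeq2 size factors, quantile normalization, other pseudocounts, no filter, the highest row of a name, edgeR 4.0.16, DESeq2 1.42.0, a replicate block and leaving out each library.

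Members and lists were chosen with earlier results of these data known. Named were the 7 members, the 3 miRNAs most correlated with each guide over line means, and at most 4 miRNAs of each list with the highest mean.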

Additional observations from a re-analysis of the deposited data

Results flagged for a closer look

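The arm ratios of the 3 hairpins differed between lines by a test of the difference itself (limma F test over 6 lines, Benjamini-Hochberg adjustment over 300 hairpins). The adjusted p was 0.000968 for miR-29a, 0.00012 for miR-29b and 0.000242 for miR-29c. The + 1 raised the miR-29a ratio in HepG2, where miR-29a-5p had 6 and 10 reads. For miR-29b and miR-29c the leading arm changed between the NEXTflex and the Novogene libraries, and in opposite directions. Line and preparation cannot be told apart in this difference. With 2 libraries a line, no group was large enough to look for a single deviating library.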

How the results depend on the processing

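The tests across 6 lines (6 members, 3 arm ratios) and across the 4 NEXTflex lines (4 members), and A549 minus ES2 (4 members), kept their counts within 1.5 times under every alternative run. ES2 minus MV3 (1 member) gave 3 with TMM factors, DESeq2 size factors, edgeR and DESeq2, 2 with quantile normalization, and 0 with a pseudocount of 0.5 or no filter. BE(2)C minus HepG2 (5 members) gave 3 with TMM factors, DESeq2 size factors, quantile normalization and edgeR, and 2 with DESeq2. A549 minus MV3 (4 members) gave 2 with edgeR. The arm ratios within NEXTflex lines (0) gave 1 with a pseudocount of 5.

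Leaving out single libraries gave 0 to 2 members for ES2 minus MV3, 3 to 6 for BE(2)C minus HepG2, 4 to 5 for A549 minus ES2 and for A549 minus MV3. The log2 ratio of miR-29a-3p over miR-29c-3p ranged from 7.49 to 7.75 in A549, 9.62 to 9.87 in ES2, 8.45 to 9.003 in MV3, 5.18 to 6.40 in BE(2)C and 6.16 to 6.50 in HepG2. With a pseudocount of 5 it was 7.36 in A549, 9.56 in ES2, 8.83 in PANC1 and 4.40 in HepG2, and with 0.5 it was 7.01 in HepG2. Read from the miR-29b 5p strands instead, the ratio was 5.52 in A549, 7.32 in ES2, 6.50 in MV3, 7.14 in PANC1 and 0.63 in HepG2, and it reversed to -0.66 in BE(2)C. In HepG2 miR-29c-3p lay at 0.168 and 0.577 CPM, so its log2 ratio was largely set by the pseudocount. The cause of the different ratio from the miR-29b 5p strands was not tested. With TMM factors the highest line mean over the lowest moved to 10.4 for miR-29a-5p, 17.6 for miR-29b-3p, 20.8 for miR-29b-2-5p and 11.7 for miR-29c-3p.

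Equal replicate numbers did not pair the libraries, since deviations from line means correlated at r from -0.053 to 0.109. With the replicate number as a block the counts were 6, 4, 4, 4, 1 and 5 for members (6 lines, NEXTflex lines, A549 minus ES2, A549 minus MV3, ES2 minus MV3, BE(2)C minus HepG2) and 3 and 0 for arm ratios.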
